A study of Mus musculus with 29 samples.

Results

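The genes described here encode the collagen chains, the laminin chains and the nidogens. They were taken as every row of the count matrix whose gene symbol is a collagen chain (Col, a number, a and a number), a laminin alpha, beta or gamma chain, or Nid1 or Nid2, and whose raw count was above 20 in every library of at least 1 of 6 sample groups. Of 56 such rows, 52 met the minimum, out of 14132 genes that met it among 36172 rows in all. These are 39 of 43 collagen chains, 11 laminin chains and both nidogens; Col4a3, Col6a6, Col10a1 and Col28a1 did not meet it. Of the 52 members, 31 passed in all 6 groups, and Col14a1 and Col9a1 passed in 1 group only.

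The study used NuTRAP, an allele made for tagging nuclei and purifying translating ribosomes, in which Cre recombinase turns on an EGFP-tagged ribosomal protein and a labelled nuclear envelope. Both lines carried 1 floxed NuTRAP allele with 1 inducible Cre allele, Aldh1l1-Cre/ERT2 for astrocytes or Cx3cr1-Cre/ERT2 for microglia. The study used males and females. All mice were induced with tamoxifen on 5 consecutive days and were about 3 months old, and RNA came from brain. Tissue was collected longer after tamoxifen in the Cx3cr1 line than the paper gives for its first tests of the Aldh1l1 line. The tag marks any cell in which the Cre driver has been active: Cx3cr1 is also used by macrophages at the borders of the brain, and Aldh1l1 marks astrocytes of all brain regions. From each homogenate, cleared by centrifugation (the input), tagged ribosomes were pulled down with anti-GFP beads (the positive fraction), and the unbound remainder was kept (the negative fraction). The Aldh1l1-NuTRAP line gave 3 positive and 3 negative fractions from mice 290, 293 and 294, and the Cx3cr1-NuTRAP line gave 6 positive fractions, 6 negative fractions and 6 inputs from mice 155, 192, 194, 209, 210 and 277. Whole tissue, from which RNA was isolated conventionally, was available from 5 of those mice, all but mouse 155.

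Basement membranes are thin extracellular sheets that surround brain vessels and underlie the pial surface. Each laminin is a trimer of an alpha, a beta and a gamma chain, and laminin and collagen IV networks are linked by nidogens. Around brain vessels, endothelial cells and pericytes lay down an inner sheet in which laminin alpha 4 and alpha 5 chains are known to occur, and astrocyte endfeet contribute an outer sheet with the laminin alpha 2 chain, encoded by Lama2. Fibrillar collagens such as types I and III are products of fibroblasts, and collagen VI forms beaded filaments. FACIT collagens (fibril-associated collagens, among them type IX) sit on fibrils, and transmembrane collagens such as types XIII, XVII, XXIII and XXV are anchored in the cell membrane.

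Libraries held 4260949 to 26857866 counts, and the shallowest was the whole tissue of mouse 210. Values are given as CPM, counts per 1e6 counts of a library, after scaling by the trimmed mean of M values (TMM). Astrocyte markers summed to 24200 to 33100 CPM in the Aldh1l1 positive fractions and 3370 to 4100 CPM in the negative fractions, and microglial markers to 3220 to 8250 CPM in the Cx3cr1 positive fractions and 396 to 437 CPM in the inputs. The 6 Cx3cr1 positive fractions were not alike. The first principal component over 13315 genes that are no members held 73.9% of their variance and placed mice 155, 192 and 194 on one side and mice 209, 210 and 277 on the other. The same mice differed in Xist (1530 to 3180 CPM against 2.35 to 3.37 CPM). They also differed in the Y-linked Ddx3y (0.449 to 1.35 CPM against 61.3 to 68.0 CPM). The labels give no sex, and the study used males and females. By these genes mice 155, 192 and 194 read as female and mice 209, 210 and 277 as male. Sex and any other difference between these sets of mice cannot be told apart. The whole tissue of mouse 210 held both Xist (62.1 CPM) and Ddx3y (74.2 CPM), whereas the other libraries of that mouse held Xist at 1.27 to 2.63 CPM. In the Aldh1l1 line mouse 290 stood apart in the same genes, with Xist at 393 and 102 CPM and Ddx3y at 3.11 and 5.06 CPM in its fractions against 2.44 to 3.56 CPM and 69.5 to 97.7 CPM in mice 293 and 294. By the same genes mouse 290 read as female and mice 293 and 294 as male. Counts of members over the Cx3cr1 positive fractions are given for all 6 mice and for each set of 3.

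Collagen IV, laminin alpha 2 and the nidogens were detected in all 6 groups. In the Aldh1l1 positive fractions Col4a1, a chain of the common collagen IV trimer (chr8:11198423-11312826, minus strand, mm10), stood at 17, 31.4 and 29.2 CPM in mice 290, 293 and 294, and in the negative fractions at 29.2, 47.0 and 40.2 CPM. Its partner Col4a2 (chr8:11312829-11449287, plus strand), transcribed the opposite way from a start next to that of Col4a1, stood at 19.7, 38.2 and 33.1 CPM and at 35.9, 52.0 and 33.7 CPM. Both were lower in the positive fraction of every mouse, but the groups overlapped. Lama2 (chr10:26981285-27616942, minus strand) stood at 18.3, 31.7 and 26.4 CPM in the positive and 9.30, 13.2 and 13.7 CPM in the negative fractions, without overlap. In the Cx3cr1 inputs these genes were close between mice, with Col4a1 at 25.6 to 35.8 CPM, Col4a2 at 23.4 to 36.4 CPM and Lama2 at 15.7 to 23.3 CPM.

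Nid1 (chr13:13437602-13512275, plus strand) and Nid2 (chr14:19751257-19811787, plus strand) encode the nidogens. Nid1 stood at 10.1, 16.3 and 29.4 CPM in the Aldh1l1 positive and 10.1, 11.0 and 12.8 CPM in the negative fractions, and Nid2 at 8.05, 9.11 and 5.70 CPM and at 4.24, 4.14 and 3.57 CPM. The groups overlapped for Nid1 and did not for Nid2. Across the Cx3cr1 line, Nid1 averaged 7.40 ± 1.81 CPM in the positive fraction, 11.0 ± 0.853 CPM in the negative fraction and 13.4 ± 1.63 CPM in the input (SD, n = 6 each), and 13.5 ± 2.71 CPM in whole tissue (SD, n = 5).

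**Figure D1:**
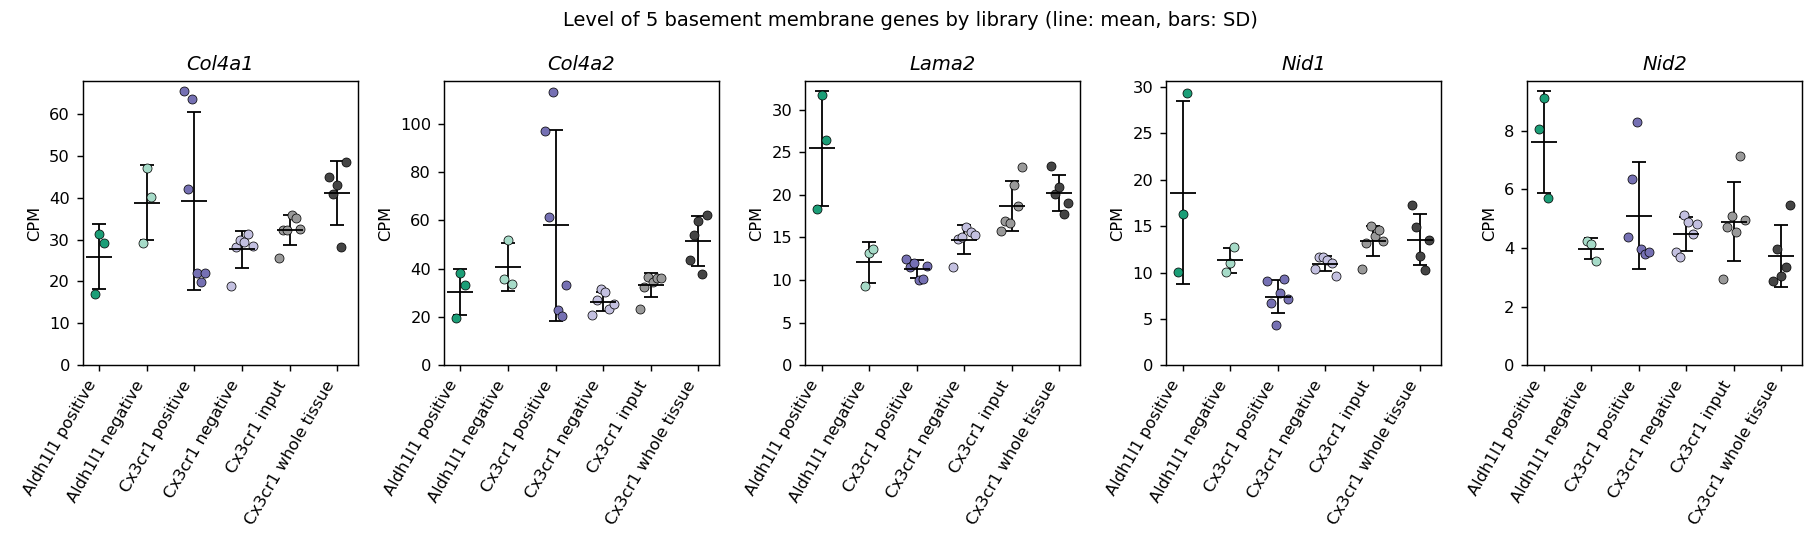
CPM of Col4a1, Col4a2, Lama2, Nid1 and Nid2 in each library (points) of the 6 groups, with the group mean and SD. Lama2 was highest in the Aldh1l1 positive fractions (25.5 CPM on average), and the Cx3cr1 positive fractions spread most widely for Col4a1 and Col4a2, from 19.9 to 65.4 CPM and from 20.4 to 113 CPM.

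Levels of different genes were ranked per kilobase of exon. Per kilobase, Col9a3, a chain of the FACIT collagen IX, led the members in the Aldh1l1 positive fraction at 35.9 ± 8.99 CPM per kb, followed by Lamb2 at 19.6 ± 2.06 and Col9a2 at 11.0 ± 2.43 CPM per kb (SD, n = 3). Col6a1, a collagen VI chain, led in the Aldh1l1 negative fraction (11.9 ± 2.69 CPM per kb, n = 3), the Cx3cr1 input (9.42 ± 1.46, n = 6) and, on average, the Cx3cr1 positive fraction (21 ± 17.3, n = 6). In the positive fractions of mice 155, 192 and 194 it stood at 36.8, 23.5 and 45.9 CPM per kb and in those of mice 209, 210 and 277 at 5.28, 4.68 and 10.2 CPM per kb, and in mice 209 and 210 it lay below Col9a3 (5.63 and 5.77 CPM per kb). In whole tissue Col4a2 led at 7.78 ± 1.59 CPM per kb, within its spread of Lamb2 (6.78 ± 1.13) and Col25a1 (6.60 ± 2.01, n = 5 each). Between libraries of a group, the members varied more than genes at large. The SD was a median 29.9% of the mean over members in the Aldh1l1 positive fraction against 20.2% over all genes, 40.3% against 15.7% in the Cx3cr1 positive fraction and 15.3% against 9.37% in the input. In the Cx3cr1 positive fraction it ran from 5.20% for Lamb2 to 106% for Col24a1.

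The first comparison asked which member transcripts were on astrocyte ribosomes, with the unbound RNA of the same homogenates as the reference. The laminin chains separated: Lamb2 and Lama2 were higher in the positive fraction, and Lamb1, Lama1, Lama4 and Lamc3 were lower. The collagen IX chain Col9a3 and the collagen VIII chain Col8a2 were among the highest rises, and Col1a1, Col3a1 and the collagen VI chains Col6a1 and Col6a2 fell. By edgeR's quasi-likelihood test with Benjamini-Hochberg adjustment over 13343 genes, 12 of the 47 members tested were higher (25.5%, where 26.8% of all genes tested were) and 14 were lower (29.8%, where 24.8% of all genes were). The members' median difference was -0.37 on the log2 scale, against 0.04 over all genes. The shares were thus near those of genes at large. Of the 26 called, Col9a1, Col4a4 and Col4a5 passed the count minimum only in the positive fraction, where they were high, and Lama1 and Lamc3 only in the negative fraction. Each of the 26 except Col12a1 had no overlap between positive and negative fractions, as did 5 members that missed the threshold (Col16a1, Col9a2, Col5a1, Col5a3 and Lamb3). In all, 15 of the 47 members lay higher without overlap (31.9%, where 32.7% of all genes did) and 15 lower (31.9%, where 28.4% of all genes did). Scaling by total counts alone moved the median of all genes to -0.311 and left 5 members higher and 20 lower (background 18.3% and 36.2%). With the mouse as a block 17 were higher and 20 lower (background 37% and 33.8%). Without mouse 293 the counts were 5 higher and 6 lower (background 14.8% and 12.6%), without mouse 294 they were 4 and 6 (14.8% and 11.9%), and without mouse 290 there were 20 lower (34.3%). The counts of members moved with those of all genes.

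Among the laminin beta chains, Lamb2 stood at 105, 129 and 123 CPM in the positive fractions of mice 290, 293 and 294 and at 30.5, 28.2 and 19.6 CPM in the negative fractions. Every positive fraction exceeded every negative fraction, a 4.43-fold difference (log2 2.15 ± 0.21 SE, adjusted p = 0.000224). Lamb1, the beta chain it can replace in the trimer, stood at 12.8, 11.5 and 13.4 CPM against 26.8, 22 and 28.0 CPM. It was 2.11-fold lower without overlap (log2 -1.08 ± 0.17, adjusted p = 0.00184), so the paralogs moved in opposite directions in all 3 mice. The upstream sequences of these chains and of Lama2, the alpha chain that rose with Lamb2, are shown because the chains moved apart or together; they come from RefSeq promoter windows on build GRCm38.p6, ended before the first annotated exon, and capitals mark CCAAT or the reverse complement of GGGCGG. The windows are chr10:27616943-27617192 (minus strand) for Lama2, chr12:31265043-31265233 (plus strand) for Lamb1 and chr9:108479612-108479735 (plus strand) for Lamb2.
Lama2: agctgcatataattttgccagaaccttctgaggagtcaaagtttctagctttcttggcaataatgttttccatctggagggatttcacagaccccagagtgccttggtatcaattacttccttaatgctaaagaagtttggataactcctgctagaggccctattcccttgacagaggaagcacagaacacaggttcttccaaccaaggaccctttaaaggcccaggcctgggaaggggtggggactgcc
Lamb1: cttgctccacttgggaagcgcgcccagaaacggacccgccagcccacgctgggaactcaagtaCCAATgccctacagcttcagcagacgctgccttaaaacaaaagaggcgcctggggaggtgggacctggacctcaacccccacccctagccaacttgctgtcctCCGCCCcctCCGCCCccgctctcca
Lamb2: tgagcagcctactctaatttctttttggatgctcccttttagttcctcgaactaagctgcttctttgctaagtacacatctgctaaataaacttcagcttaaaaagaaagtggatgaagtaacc
The Lamb1 stretch held CCAAT once and GGGCGG on the reverse strand at 2 places, and the printed Lama2 and Lamb2 stretches held no match to GGGCGG on either strand, nor to CCAAT, nor to TATAAA. In the untrimmed windows of 250 bases before to 50 after the start, 38 of 52 members had an entry. GGGCGG, the core of the GC box, was in 25 of them, the full Lama2 window included (65.8%, against 38.2% of 27025 windows of all genes), CCAAT in 15 (39.5% against 41.1%) and TATAAA in 4 (10.5% against 15.7%). Both strands were searched, matches of different motifs may overlap, and a match is a match of letters only.

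Among the alpha chains, Lama2 was 2.04-fold higher in the positive fraction (log2 1.03 ± 0.27, adjusted p = 0.0147), a call that was lost without mouse 293 (log2 0.89, adjusted p = 0.12), without mouse 294 (1.10, adjusted p = 0.0831) and with total counts alone (0.68, adjusted p = 0.0722). Lama4, the alpha chain known from the endothelial sheet, averaged 3.41 ± 0.488 CPM against 7.08 ± 0.540 CPM (SD, n = 3 each) and was lower without overlap (log2 -1.11 ± 0.24, adjusted p = 0.00623). Lama1, which is known from the pial sheet, averaged 1.34 ± 0.403 against 3.80 ± 0.756 CPM (log2 -1.53, adjusted p = 0.00819). Lama5 (log2 0.40, adjusted p = 0.31) and Lama3 (log2 -0.52, adjusted p = 0.365) did not pass the test. Lamc1, the gamma chain of most laminins, averaged 31.2 ± 9.52 and 30.2 ± 10.7 CPM with overlapping groups (adjusted p = 0.999), and Lamc3 averaged 2.22 ± 1.08 against 6.33 ± 1.05 CPM (log2 -1.53, adjusted p = 0.013).

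The collagen IV chains did not move together. Col4a1 and Col4a2 differed by log2 -0.63 ± 0.29 (adjusted p = 0.105) and -0.46 ± 0.29 (adjusted p = 0.227). With the mouse as a block, both passed, at -0.64 (adjusted p = 0.00107) and -0.47 (adjusted p = 0.0213), as did Nid1 at 0.60 (adjusted p = 0.0306; 0.68 ± 0.37, adjusted p = 0.164, without the block). The rarer collagen IV chain Col4a5 averaged 9.02 ± 3.03 CPM against 3.56 ± 1.18 CPM (log2 1.27 ± 0.37, adjusted p = 0.0221). Col4a4 stood at 4.83, 2.03 and 1.21 CPM against 0.942, 0.820 and 0.375 CPM, higher in each positive fraction (log2 1.85 ± 0.62, adjusted p = 0.0384), but its call was lost without mouse 293 (adjusted p = 0.112) or 294 (adjusted p = 0.071) and with total counts alone (1.49, adjusted p = 0.0684). Nid2 was 1.85-fold higher (log2 0.89 ± 0.26, adjusted p = 0.0245), and lost that call without mouse 293 (0.76, adjusted p = 0.209), without mouse 294 (0.99, adjusted p = 0.0962) and with total counts alone (0.54, adjusted p = 0.115).

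Of the remaining collagens, Col9a3 rose most. It stood at 172, 103 and 141 CPM in the positive and 42.0, 25.4 and 14 CPM in the negative fractions, 4.96-fold higher without overlap (log2 2.31 ± 0.39, adjusted p = 0.00244). Col8a2, a chain of the network-forming collagen VIII, stood at 18.4, 25.5 and 25.3 CPM against 5.77, 6.84 and 4.88 CPM (log2 1.94 ± 0.23, adjusted p = 0.000494). Both were high in all 3 positive fractions and low in all 3 negative fractions. The transmembrane collagens split, with Col23a1 averaging 48.2 ± 10.0 against 20.9 ± 5.02 CPM (log2 1.16, adjusted p = 0.00508) and Col25a1, known as a neuronal collagen, standing at 9.89, 24.7 and 17.8 CPM against 31.7, 64.0 and 51.8 CPM (log2 -1.53 ± 0.39, adjusted p = 0.0131; adjusted p = 0.0809 without mouse 294). Col19a1, a FACIT collagen, stood at 9.55, 7.51 and 7.89 CPM against 19, 28.1 and 23.9 CPM (log2 -1.57 ± 0.21, adjusted p = 0.000857).

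The fibrillar collagen I chains, which assemble with each other in fibroblasts, went apart. Col1a1 averaged 8.0 ± 1.05 CPM in the positive and 21.8 ± 1.69 CPM in the negative fractions (log2 -1.48 ± 0.19, adjusted p = 0.000607), whereas Col1a2 averaged 50.5 ± 5.79 against 31.3 ± 8.84 CPM (log2 0.65 ± 0.22, adjusted p = 0.0429). Col3a1 stood at 2.53, 1.72 and 1.27 CPM against 7.89, 7.23 and 4.65 CPM (log2 -1.91 ± 0.36, adjusted p = 0.00355; adjusted p = 0.056 without mouse 293). Of the collagen VI chains, Col6a1 (log2 -0.73, adjusted p = 0.0226) and Col6a2 (log2 -1.03, adjusted p = 0.0102) were lower. The other calls were Col9a1 (log2 1.63), Col7a1 (1.19) and Col11a2 (0.89) among the higher, and Col15a1 (-1.41), Col20a1 (-1.22) and Col12a1 (-1.05) among the lower. Col14a1, Col4a6, Col6a5, Col13a1 and Col17a1 fell under the count minimum in both fractions of this line and were not tested.

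**Figure D2:**
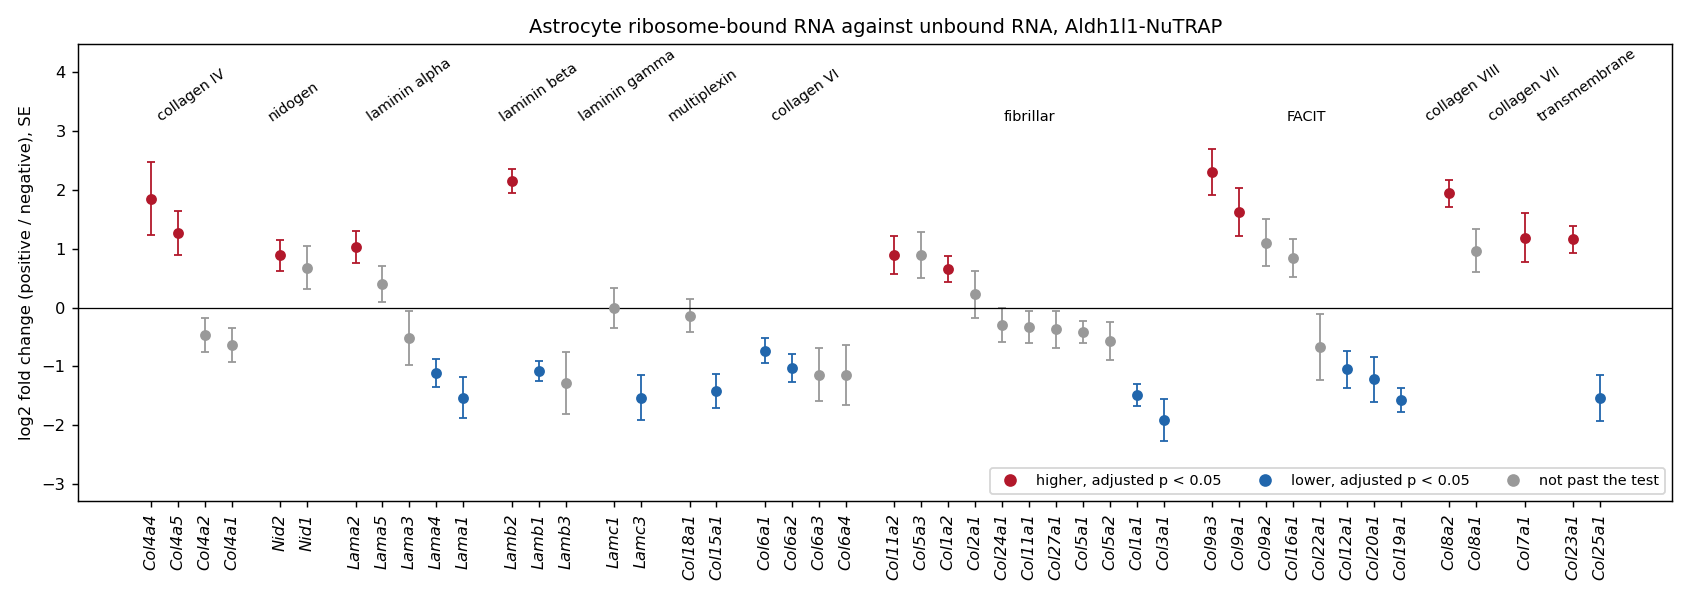
Log2 difference of the Aldh1l1 positive over the negative fraction (points, bars are SE, n = 3 and 3) for 46 of the 47 members tested, arranged by class and coloured by call. Lamb2 (2.15) and Lama2 (1.03) lie above 0 and Lamb1 (-1.08) and Lama4 (-1.11) below it, and Col9a3 (2.31) and Col3a1 (-1.91) bound the collagens.

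Markers of other cells moved as well. Choroid plexus markers, 10 of 10 higher, summed to 3860 to 4680 CPM in the positive and 498 to 647 CPM in the negative fractions, and of 4 ependymal markers tested 3 were higher. Of 13 endothelial markers 1 passed the test, as higher. Their sums were 293 to 369 CPM against 194 to 273 CPM, but their median log2 difference was -0.33 (0.04 over all genes), so sum and median went opposite ways. Pericyte and smooth muscle markers had 3 higher and 3 lower of 9, and fibroblast and meningeal markers 5 higher and 5 lower of 12, at 116 to 165 CPM in the positive and 176 to 186 CPM in the negative fractions. Neuronal (8 of 8), oligodendrocyte (8 of 8), microglial (10 of 10) and erythrocyte (4 of 4) markers were lower; of 7 oligodendrocyte precursor markers 4 were lower and 2 higher, and of 3 border macrophage markers 1 was lower. The part of these cells in the members' differences was not tested, and in bulk RNA fewer cells of a type and less RNA per cell cannot be told apart.

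Genes that act on or with these chains were counted on lists of their own. Of 28 collagen-modifying and processing enzymes and chaperones tested, 16 were higher and 4 lower in the Aldh1l1 positive fraction, with a median log2 difference of 0.63 (over all genes 26.8% were higher and 24.8% lower, with a median of 0.04). The largest were Fkbp10, a collagen chaperone of the endoplasmic reticulum (80.6 against 7.17 CPM, log2 3.43), Loxl1, a lysyl oxidase (log2 2.72), and the prolyl hydroxylase subunit P4ha3 (log2 2.63); the procollagen protease Adamts3 (-1.72), the peroxidase Pxdn (-1.44) and the protease Tll1 (-1.37) were lower. Of 18 other basement membrane components, 10 were higher, led by the collagen-binding glycoprotein Sparc (5760 against 719 CPM, log2 2.95), Sparcl1 (2.57) and Fbln1 (1.89), and 3 lower, Smoc2 (-1.87), Fras1 (-1.56) and fibronectin, Fn1 (-1.05). Of 17 receptors, 9 were higher, led by Gpr56 (log2 2.38), a receptor of collagen III, the laminin receptor subunit Itga6 (1.90) and the laminin-binding Bcam (1.57), and 3 lower, Itgb4 (-2.12), Sv2a (-1.45) and Itga3 (-0.96).

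The chains of a laminin compete for a place in the trimer, so the share of each chain within its class was computed from CPM per kilobase. In the Aldh1l1 positive fraction Lamb2 made up 93.1 ± 1.21% of beta chain transcripts (SD, n = 3) and Lamb1 6.07%. In the negative fraction they made up 58.3 ± 7.22% and 35.8%. The sum over beta chains was 21 CPM per kb against 7.32. Lama2 made up 45.6 ± 0.834% of the alpha chains in the positive and 24.6 ± 0.244% in the negative fraction, and Lama4 8.87% and 20.3%. In the Cx3cr1 line the Lamb2 share was 67.7% in the positive fraction, 64.7% in the negative fraction, 63.8% in the input and 75.2% in whole tissue, and the Lama2 share 22.2%, 27.8%, 29.7% and 30.0%.

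Ratios of chain pairs within a library need no scaling between libraries. The log2 ratio of Lamb1 to Lamb2 averaged -3.24 in the Aldh1l1 positive and -0.01 in the negative fractions, a difference of -3.23. With 3 against 3 libraries the two-sided exact permutation test can give no p below 0.1, which is the value obtained (adjusted p = 0.167 over 20 tests of 5 pairs in 4 comparisons). The same holds for Lama2 over Lama4 (2.86 against 0.75) and Col1a1 over Col1a2 (-2.65 against -0.49), each without overlap. Between the Aldh1l1 and Cx3cr1 positive fractions, with 3 against 6 libraries, the smallest exact permutation p is 0.0238. Differences of -2.66 for Lamb1 over Lamb2, 1.76 for Lama2 over Lama4 and -1.89 for Col1a1 over Col1a2 stood at it (adjusted p = 0.0649). Input minus whole tissue gave 0.86 for Lamb1 over Lamb2 (exact permutation p = 0.013, adjusted p = 0.0649). Between the Cx3cr1 positive fraction and input, Lamb1 over Lamb2 averaged -0.58 and -0.29 (difference -0.29, exact permutation p = 0.00216, adjusted p = 0.0433), the only ratio of the 20 past 0.05. Nid1 over Nid2 differed by -0.93 (exact permutation p = 0.00649, adjusted p = 0.0649) and Col4a1 over Col4a2 by -0.41 (p = 0.026, adjusted p = 0.0649) in the same comparison. With the mouse as a pair, the Lamb1 over Lamb2 difference of -0.29 had an exact permutation p = 0.0312 (adjusted p = 0.234), and without any 1 of the 6 mice p = 0.00794 (adjusted p = 0.0794 to 0.119) at differences of -0.32 to -0.22. These are the smallest p the exact permutation tests can give at those sizes, so the adjusted values say nothing about stability. In mice 155, 192 and 194 and in mice 209, 210 and 277, the differences were -0.17 and -0.41 for Lamb1 over Lamb2, -1.55 and -0.31 for Nid1 over Nid2 and -0.63 and -0.19 for Col4a1 over Col4a2.

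**Figure D3:**
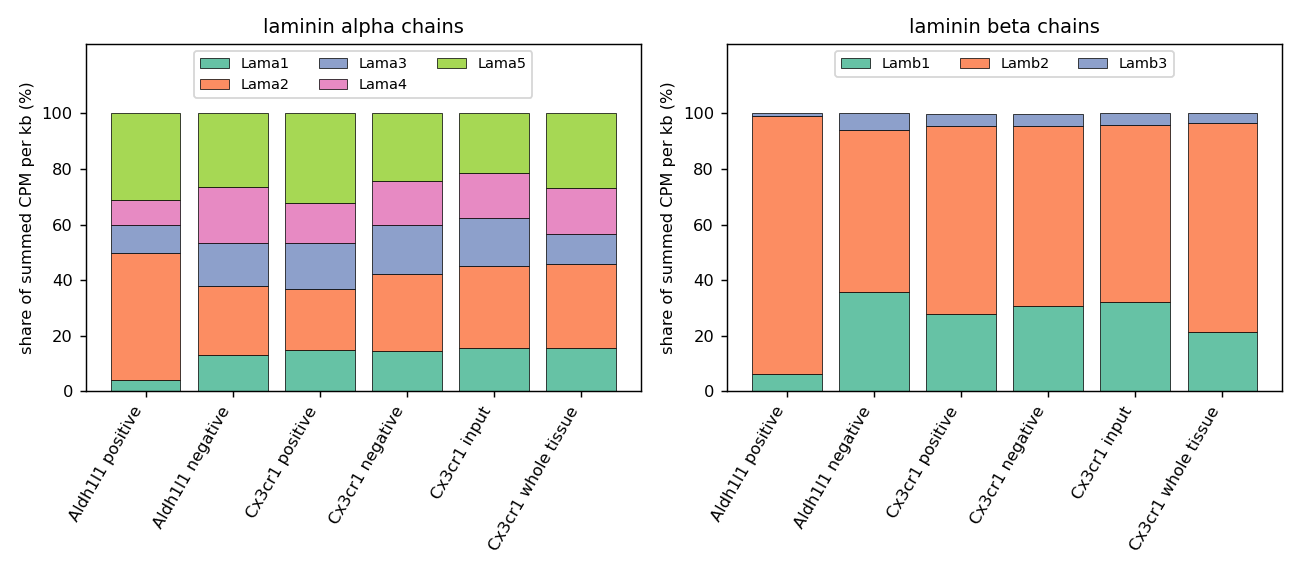
Mean share (%) of each chain in the summed CPM per kilobase of laminin alpha and beta chains, stacked, for the 6 groups. Lamb2 takes 93.1% of the beta chains in the Aldh1l1 positive fraction and 58.3 to 75.2% in the other groups.

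The Cx3cr1-NuTRAP positive fraction was compared with the input of the same mice to ask which members were enriched on the ribosomes of tagged microglia. The positive fractions still held neuronal markers at 5470 to 7820 CPM (inputs 7050 to 7630 CPM). Astrocyte markers stood there at 2940 to 4300 CPM (inputs 4410 to 4910 CPM). The level of a member in this fraction is therefore not its level in microglia alone. Lamc1, Lamc3, Lama2, Lama4, Nid1, both collagen I chains and both collagen VIII chains were lower, and Lama1, Lama3 and Lama5 did not pass the test. Col15a1, a multiplexin of basement membrane zones, was higher in 6 of 6 mice without overlap, and the largest other rises came from mice 155, 192 and 194. Over all 6 mice, 11 of the 50 members tested were higher (22%, where 23.2% of 13862 genes were) and 13 lower (26.0%, where 25.6% of genes were), with a median log2 difference of 0.18 against 0.00. With mice 209, 210 and 277 alone, 1 was higher and 24 lower (background 29.8% and 29.1%), and with mice 155, 192 and 194 alone 26 were higher and 10 lower (background 21.6% and 20.6%). Against the negative fraction, 9 of 50 were higher (18%, background 12.8%) and 11 lower (22%, background 11.5%), with 1 and 12 in the former mice (background 19% and 16.8%) and 24 and 5 in the latter (16.4% and 8.43%). Without mouse 155 the higher count against the input was 4 (background 26.1%), without mouse 194 it was 5 (22.9%) and without mouse 192 it was 7 (20%). Against the negative fraction it was 4, 3 and 2 without mouse 155, 192 and 194 (16.4%, 8.50% and 8.34%). The lower count there was 2 without mouse 192 (4.11%), 5 without 194 or 277 (6.28% and 6.26%), 6 without 209 (10.1%) and 7 without 210 (8.07%). With the mouse as a block 7 were higher against the input (19%), and 3 higher and 7 lower against the negative fraction (9.28% and 7.97%). Col24a1 and Col4a6 passed the count minimum only through the input or the negative fraction; Col14a1 and Col9a1 were not tested against the input, nor Col9a1 and Col4a4 against the negative fraction.

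Lamc1, Lamc3, Nid1, Lama2, Col1a2, Col8a1, Col8a2 and Col25a1 were lower with either set of mice. Lamc1 ran from 16.4 to 24.4 CPM (median 21.2) in the positive fractions and from 30.9 to 42.5 CPM in the inputs, lower in 6 of 6 mice without overlap (log2 -0.88 ± 0.10, adjusted p = 8.6e-06). Nid1 ran from 4.37 to 9.25 CPM against 10.4 to 15 CPM, again without overlap (log2 -0.87 ± 0.16, adjusted p = 0.000544). Lama2 ran from 10.0 to 12.5 CPM against 15.7 to 23.3 CPM (log2 -0.75 ± 0.11, adjusted p = 6.87e-05). In the mice 209, 210 and 277 and in the mice 155, 192 and 194, the log2 differences were -0.91 and -0.81 for Lamc1, -0.75 and -0.98 for Nid1, -0.95 and -0.50 for Lama2, and -0.57 and -0.74 for Col8a2. Col1a2 ran from 18.1 to 26.4 CPM against 30.8 to 49.2 CPM (log2 -0.86 ± 0.13, adjusted p = 8.23e-05), and Col1a1 from 7.43 to 19.1 against 16.5 to 38.4 CPM (log2 -0.86 ± 0.24, adjusted p = 0.0097), lower in every mouse though the groups overlapped. With mice 155, 192 and 194 alone, Col1a1 (-0.69, adjusted p = 0.0815), Lamb1 (-0.11, adjusted p = 0.462) and Col4a6 (-0.71, adjusted p = 0.0996) did not pass, and with mice 209, 210 and 277 alone Lama4 (-0.37, adjusted p = 0.0604) did not. Lama4 (-0.54), Lamc3 (-0.75), Lamb1 (-0.26), Col8a1 (-0.85), Col25a1 (-0.56) and Col4a6 (-0.79) were also lower. Lamb2, at 30.7 to 35.4 CPM, lay within the input range (30.4 to 34.1 CPM) or near it (log2 0.03 ± 0.06, adjusted p = 0.69).

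The largest rises came from mice 155, 192 and 194. Col7a1, the anchoring fibril collagen, stood at 42.3, 23.7 and 57.6 CPM in the positive fractions of mice 155, 192 and 194 and at 3.22, 2.53 and 9.50 CPM in those of mice 209, 210 and 277, while the inputs ran from 3.15 to 4.64 CPM. Over all mice the log2 difference was 2.60 ± 0.66 (adjusted p = 0.00589), against 0.44 (adjusted p = 0.528) without mice 155, 192 and 194. Col24a1, a fibrillar collagen, stood at 22.9, 12.2 and 36.0 CPM and at 2.11, 0.707 and 4.63 CPM, with inputs of 2.06 to 3.26 CPM (log2 2.12 ± 0.69, adjusted p = 0.0233). Without those 3 mice it was -0.33 (adjusted p = 0.63), and the call was also lost without mouse 155 (adjusted p = 0.0852) or 194 (adjusted p = 0.124) and with the mouse as a block (log2 1.33, adjusted p = 0.191). Col16a1, a FACIT collagen, stood at 81.3, 54.9 and 95.1 CPM and at 14.4, 16.2 and 26.9 CPM, with inputs of 14 to 17.3 CPM (log2 1.60 ± 0.42, adjusted p = 0.0069; 0.35, adjusted p = 0.209, without the 3). Col27a1, fibrillar, stood at 56.4, 36.4 and 68.7 CPM and at 14, 11.1 and 21.3 CPM, with inputs of 11.6 to 15.5 CPM (log2 1.37 ± 0.38, adjusted p = 0.0107; 0.28, adjusted p = 0.26, without the 3). Col20a1 (log2 1.32), Col5a3 (1.31), Col11a2 (1.19), Col6a4 (1.11), Col22a1 (0.74) and Col9a2 (0.31) were the remaining calls, and of these Col9a2 alone was higher in 6 of 6 mice. None of these 6 passed in mice 209, 210 and 277 alone (log2 -0.25 to 0.43).

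Other members passed in a single set of mice or in opposite directions. In mice 155, 192 and 194 alone, 16 of 50 members that were not called over all mice were higher (32.0%, where 6.04% of 13862 genes were): the fibrillar Col11a1 (log2 2.12), Col5a1 (1.83), Col5a2 (1.10) and Col2a1 (1.05), the collagen VI chains Col6a1 (1.88), Col6a2 (0.83) and Col6a3 (0.71), Col4a2, Col4a1, Col17a1 (0.97), Lama5 (0.90), Col12a1 (0.87), Col18a1 (0.86), Col9a3 (0.78), Col19a1 (0.64) and Col23a1 (0.50). In mice 209, 210 and 277 alone, 13 such members were lower (26.0%, background 8.36%): Col4a5 (-1.44), Col4a4 (-1.18), Col19a1 (-0.94), Col12a1 (-0.92), Lama3 (-0.83), Lama1 (-0.79), Col2a1 (-0.74), Col4a1, Col5a2 (-0.63), Col3a1 (-0.62), Col4a2, Col6a2 (-0.35) and Col18a1 (-0.29). Col19a1, Col5a2, Col4a1, Col4a2, Col12a1, Col6a2, Col18a1 and Col2a1 were thus called higher in the former and lower in the latter (8 of 50, 16%, background 2.19%).

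Collagen IV reversed with the mice. Col4a1 stood at 65.4, 42.0 and 63.5 CPM in mice 155, 192 and 194 and at 21.9, 19.9 and 21.9 CPM in mice 209, 210 and 277, and Col4a2 at 97.0, 61.2 and 113 CPM and at 22.8, 20.4 and 33.1 CPM. Over all 6 mice neither passed the test (log2 0.25 ± 0.29, adjusted p = 0.496, and 0.78 ± 0.38, adjusted p = 0.107). The former mice alone gave log2 0.88 (adjusted p = 0.00182) and 1.52 (adjusted p = 0.000333), and the latter -0.67 (adjusted p = 6.29e-06) and -0.46 (adjusted p = 0.0226). Against the negative fraction Col4a2 passed over all 6 mice (log2 1.11 ± 0.37, adjusted p = 0.0407). Col15a1 stood at 18.2, 13.9 and 20.9 CPM and at 11.4, 10.3 and 10.3 CPM with inputs of 6.09 to 9.05 CPM, and it kept its direction in both sets of mice (log2 1.21 and 0.37, adjusted p = 0.0201 in the latter; 0.81 ± 0.18, adjusted p = 0.00178, over all).

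Of the 50 members, 33 had all 3 positive fractions of mice 155, 192 and 194 above all 3 of mice 209, 210 and 277 (66%, where 25.9% of 13862 genes did), and 4 had all 3 below (8.0%, where 18.9% of genes did). The 4 were Lamc3, Col25a1, Col1a2 and Col8a1. In the negative fractions of the same mice 8 members lay all above (16%, background 7.65%) and 2 all below (4.00%, background 7.47%), and in the inputs 1 member lay all above (2.00%, background 12.6%) and 13 all below (26.0%, background 21.7%). Relative to the input of the same mouse, 38, 31 and 34 of 50 members lay above 0 in mice 155, 192 and 194, with medians of 0.86, 0.32 and 0.72 on the log2 scale, and 6, 5 and 17 in mice 209, 210 and 277, with medians of -0.51, -0.62 and -0.30. The median over all genes stayed between -0.04 and 0.04 in each mouse. These sets of mice were read from the libraries and are no groups of the study, so no test between them is given.

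Marker levels differed between the same libraries. Microglial markers summed to 4660, 5260 and 8250 CPM in mice 155, 192 and 194 and to 3220, 3890 and 4520 CPM in mice 209, 210 and 277, and border macrophage markers to 106, 103 and 240 CPM and to 69.4, 85.1 and 93.2 CPM. Endothelial markers (178, 207 and 214 CPM against 314, 333 and 306 CPM), pericyte markers (87.4 to 115 against 132 to 141 CPM), fibroblast markers (105 to 145 against 164 to 190 CPM) and choroid plexus markers (235 to 862 against 899 to 1020 CPM) went the other way, as did astrocyte (2940 to 3550 against 4110 to 4300 CPM), neuronal (5470 to 6170 against 7130 to 7820 CPM) and erythrocyte markers (29.7 to 136 against 257 to 484 CPM). Ependymal, oligodendrocyte and oligodendrocyte precursor markers overlapped. Of the vessel lists against the input over all mice, endothelial markers had 5 of 13 higher, pericyte markers 1 higher and 5 lower of 10, and fibroblast markers 1 higher and 6 lower of 12. Border macrophage markers were higher in 6 of 6 cases (median log2 3.03), and astrocyte (7 of 10), oligodendrocyte (7 of 8), oligodendrocyte precursor (6 of 7), choroid plexus (4 of 10) and neuronal markers (1 of 8) were lower. The 3 ependymal and 4 erythrocyte markers tested did not pass (median log2 -0.09 and -0.17). With mice 209, 210 and 277 alone (background 29.8% higher and 29.1% lower), endothelial markers had 10 higher and 0 lower of 13. Neuronal markers had 4 higher and 1 lower of 8, pericyte markers 2 higher and 4 lower of 10, and fibroblast markers 2 higher and 5 lower of 12. With mice 155, 192 and 194 alone (21.6% and 20.6%), these counts were 2 and 1, 0 and 4, 1 and 6, and 0 and 8. Exonic GC content was a median 54.9% over members and 49.9% over 13302 genes, and exon length 6047 against 3466 bases; the 33 members had a median GC of 56.1% and the other 17 of 53.0%. The rank correlation of the difference between these libraries with GC was 0.04 across 13302 genes and 0.23 across the 52 members, and with length 0.19 and 0.18. For the positive fraction over the input of all mice, it was 0.27 across 13064 genes and 0.44 across 50 members with GC. With length it was -0.42 and -0.0. These are descriptions, since genes of a library share its depth and composition. The part of these cell types, of sex as read from Xist and Ddx3y, and of GC content and length in the members' differences was not tested.

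**Figure D4:**
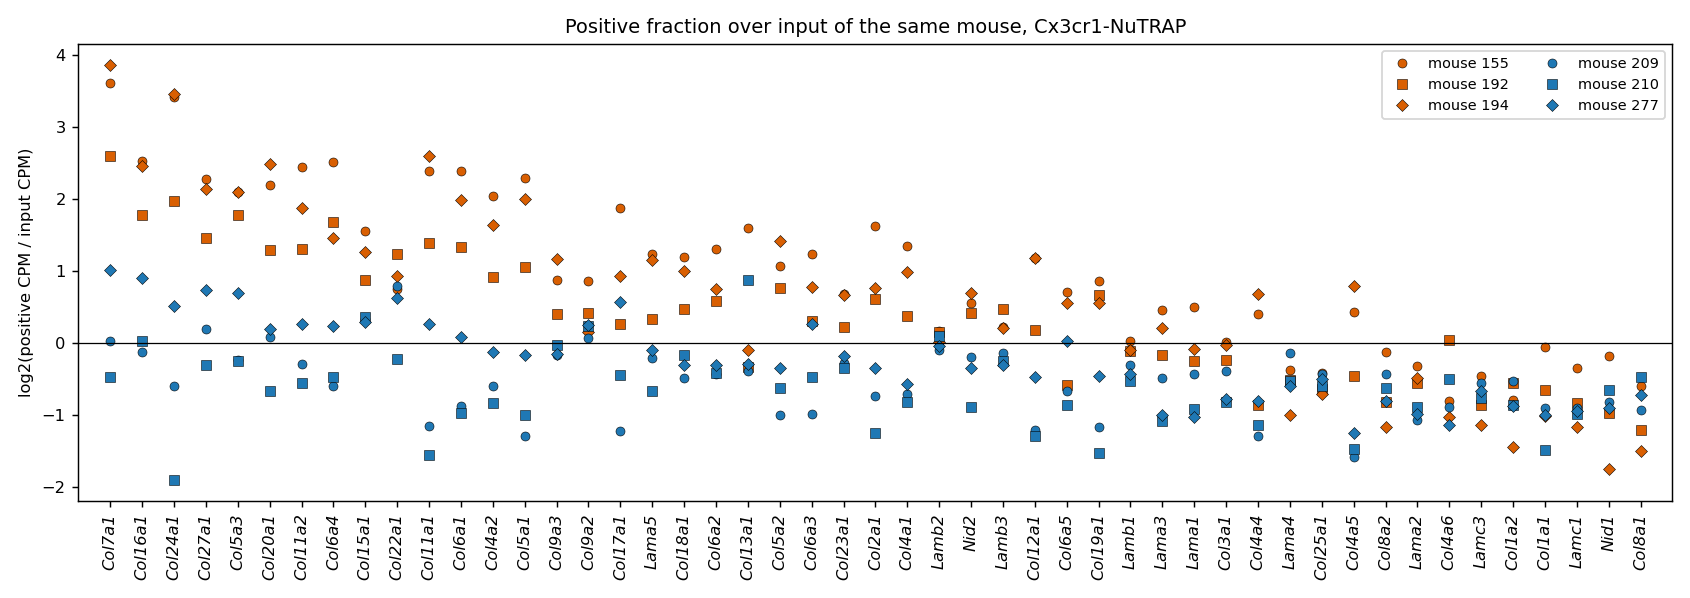
Log2 of the positive fraction CPM over the input CPM of the same mouse for 49 of the 50 members tested, with mice 155, 192 and 194 in orange and mice 209, 210 and 277 in blue. The orange points of Col7a1, Col24a1, Col11a1, Col6a1 and Col4a2 lie far above the blue points, and the orange and blue points overlap for Lamc1, Nid1 and Lamb2.

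Among the companion lists, 8 of 28 collagen-modifying genes were higher and 6 lower in the Cx3cr1 positive fraction than in the input (23.2% and 25.6% of all genes were). The prolyl 3-hydroxylases Leprel1 (log2 1.92) and Leprel2 (0.99) and the gene Crtap (0.94) led, and Adamts2 (-0.98), Tll1 (-0.89) and Pcolce2 (-0.51) were lowest. Of 20 other basement membrane components only Sparc was higher (1260 against 658 CPM, log2 0.91), and 9 were lower, among them Hmcn1 (-0.87), Ntn4 (-0.82) and Fras1 (-0.67). Of 19 receptors 7 were higher and 7 lower, with the inhibitory collagen receptor of immune cells, Lair1, at 48.5 against 7.28 CPM (log2 2.71, adjusted p = 1.2e-07) and Dag1, dystroglycan, at 68.4 against 110 CPM (log2 -0.71). With mice 209, 210 and 277 alone the counts were 7 higher and 5 lower, 3 and 9, and 7 and 7 on these lists (background 29.8% and 29.1%), and with mice 155, 192 and 194 alone 13 and 5, 2 and 5, and 7 and 5 (21.6% and 20.6%).

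Positive fractions of the lines were then set beside each other. Lamb2, Lama2, Nid1 and collagen IX and VIII chains were higher in the Aldh1l1 than in the Cx3cr1 positive fraction, and Col15a1, Lama1 and Lamb1 were lower. Of 50 members tested, 10 were higher (20%, background 30.6%) and 17 lower (34.0%, background 33.1%), with a median of -0.78 against -0.08 over 13692 genes; Col14a1 and Col4a6 were not tested. Against mice 209, 210 and 277 alone, 16 were higher and 9 lower (background 28.1% and 27.3%), and against mice 155, 192 and 194 alone, 9 and 28 (30.4% and 30.9%). Of the 27 called, Col9a1 passed only in the Aldh1l1 and Col6a3, Col6a4, Lama1 and Lamb3 only in the Cx3cr1 fraction. The lines were separate animals, and every mouse differs between them. A difference between lines cannot be told apart from one between batches of mice or from a different wait after tamoxifen. Markers of other cells moved here too: choroid plexus markers were higher in 10 of 10 cases (median log2 2.07) and ependymal markers in 3 of 4, while endothelial markers had 1 higher and 4 lower of 13, pericyte markers 2 higher and 1 lower of 9, fibroblast markers 3 higher and 6 lower of 12, oligodendrocyte precursor markers 2 higher and 4 lower of 7, and oligodendrocyte, neuronal (8 of 8 each) and border macrophage markers (6 of 6) were lower. Their part in the members' differences was not tested.

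Lamb2, with 105 to 129 CPM in the 3 astrocyte libraries, exceeded the 30.7 to 35.4 CPM (median 33.6) of the 6 microglial libraries without overlap (log2 1.72 ± 0.11, adjusted p = 2.25e-07; 1.77 and 1.83 against the Cx3cr1 sets of mice taken alone). Lama2 gave log2 1.07 ± 0.18 (adjusted p = 0.000312) and Nid1 1.23 ± 0.31 (adjusted p = 0.00523; 0.73, adjusted p = 0.0565, without mouse 294), both without overlap. Col9a3 lay at 103 to 172 CPM against 21.7 to 55.3 CPM (log2 1.90 ± 0.29, adjusted p = 0.000205), and Col8a2 at 18.4 to 25.5 against 4.32 to 7.44 CPM (log2 1.80 ± 0.19, adjusted p = 1.42e-05). In the other direction Col15a1 lay at 3.17 to 3.91 against 10.3 to 20.9 CPM (log2 -2.16 ± 0.29, adjusted p = 7.06e-05) and Lama1 at 0.920 to 1.72 against 3.55 to 6.91 CPM (log2 -1.83 ± 0.32, adjusted p = 0.000475), both without overlap. Col20a1 (1.48 to 2.99 against 1.41 to 14.9 CPM, log2 -2.04), Col6a4 (0.861 to 2.76 against 1.41 to 10.8 CPM, log2 -1.93) and Col9a1 (1.90 to 4.14 against 0.301 to 1.99 CPM, log2 1.35) overlapped between the lines. These 3 calls were lost without single mice: Col20a1 without 290, 293 or 294 (adjusted p = 0.0556, 0.0884 and 0.0857), Col6a4 without 293, 294, 155, 192 or 194 (adjusted p = 0.0525 to 0.112) and Col9a1 without 290, 293, 209, 210 or 277. Against mice 209, 210 and 277 alone, Col20a1 stood at -0.59 (adjusted p = 0.302) and Col6a4 at -0.58 (adjusted p = 0.346). Col9a1 did not pass against mice 155, 192 and 194 alone (0.80, adjusted p = 0.0844) or with total counts (1.04, adjusted p = 0.0834). Col4a1 and Col4a2 changed sign with the Cx3cr1 mice, at log2 0.22 and 0.19 against mice 209, 210 and 277 and -1.12 and -1.56 against mice 155, 192 and 194. Among the companion lists, 14 of 28 collagen-modifying genes were higher and 6 lower (30.6% and 33.1% of all genes were), with Fkbp10 (log2 3.26), Loxl1 (2.69) and the collagen chaperone Serpinh1 (2.58) leading; 7 of 19 other basement membrane components were higher and 3 lower, and 6 of 19 receptors were higher and 7 lower. Against mice 209, 210 and 277 alone these counts were 15 and 5, 7 and 2, and 7 and 6 (background 28.1% and 27.3%), and against mice 155, 192 and 194 alone 13 and 8, 10 and 4, and 5 and 6 (30.4% and 30.9%).

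The difference between the lines in positive over negative fraction was tested as an interaction. It was positive for 10 of 52 members (19.2%, background 25.5%) and negative for 19 (36.5%, background 29.9%), with 11 and 9 where only mice 209, 210 and 277 stood for the Cx3cr1 line (background 22.9% and 22.8%) and 8 and 23 where only mice 155, 192 and 194 did (23.9% and 26.6%). Without mouse 293 there were 11 negative values (background 25.9%), and without mouse 294 there were 12 (24.9%). The largest positive values were Col8a2 (log2 2.44 ± 0.26), Col4a4 (2.10 ± 0.78) and Lamb2 (2.05 ± 0.17, adjusted p = 1.54e-08), and Lama2 stood at 1.38 ± 0.24 (adjusted p = 9.57e-05). Of the groups in this test, Col4a4 passed the count minimum only in the Aldh1l1 positive fraction, where it was high. The largest negative values were Col24a1 (-2.74 ± 1.05), Col20a1 (-2.49 ± 0.79) and Col15a1 (-2.38 ± 0.37, adjusted p = 2.85e-05). With mice 209, 210 and 277 alone for the Cx3cr1 line, Col24a1 stood at -0.39 (adjusted p = 0.659) and Col20a1 at -1.41 (adjusted p = 0.0548), whereas Col15a1 (-1.85), Col8a2 (2.43), Col4a4 (3.17), Lamb2 (2.15) and Lama2 (1.60) passed; with mice 155, 192 and 194 alone, Col4a4 did not (1.55, adjusted p = 0.141). The negative fractions themselves were closer between the lines: 1 of 50 members was called higher in the Aldh1l1 line (2.00%, background 0.125%), Col24a1 at 6.18 ± 1.09 against 2.41 ± 0.471 CPM (log2 1.32, adjusted p = 0.0363), and 0 were lower (background 0.125%). By edgeR, 9 were higher and 4 lower at an unadjusted p under 0.05 (background 6.37% and 7.06%), and DESeq2 called 4 and 1 (background 1.86% and 1.92%). Without mouse 293, 192, 209, 210 or 277, edgeR called 0 higher, without mouse 155 it called 2 (0.298%), and without 290 or 294 it called 3 (0.436% and 0.139%). These comparisons share samples with those above, and each value is therefore given on its own.

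The Cx3cr1 input, a cleared homogenate, was then set against the libraries labelled whole tissue, which are titled slice. Clearing, RNA preparation and the piece of brain taken cannot be told apart here. Col4a1, Col4a2, Col4a5, Lamb2, Lama5 and Col16a1 were lower in the input, and Col6a1, Col19a1, Lamb1 and Col1a1 higher. Of 49 members tested, 10 were higher (20.4%, background 16.3%) and 14 lower (28.6%, background 14.2%), with a median of -0.02 against 0.00 over 13632 genes; without the whole tissue of mouse 210 the counts were 12 and 15 (background 20.6% and 19.9%). Col20a1, Lama3, Col17a1 and Col5a3 passed only in the input, and Col14a1, Col9a1 and Col13a1 were not tested. With all 6 groups in the fit 5 were higher and 6 lower (background 8.40% and 9.19%), and with the mouse as a block 8 were lower (9.52%). Without mouse 192, 194 or 209 the higher count was 6 (9.29%, 9.98% and 9.72%).

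Col6a1 ran from 30.9 to 51.0 CPM (median 41.6) in the inputs and stood at 10.6, 14.6, 12.0, 29.5 and 18.6 CPM in the whole tissue of mice 192, 194, 209, 210 and 277. The groups did not overlap, and mouse 210, the shallowest library, came nearest to the inputs (log2 1.39 ± 0.22, adjusted p = 0.000627). Col19a1 ran from 16 to 26.1 against 11.3, 7.49, 10.0, 13.2 and 12.6 CPM (log2 1.03 ± 0.16, adjusted p = 0.000371). Col17a1, a transmembrane collagen of low level, ran from 1.34 to 3.05 against 0.686, 0.317, 1.37, 1.56 and 0.816 CPM (log2 1.57 ± 0.33, adjusted p = 0.00288), and Col1a1 from 16.5 to 38.4 against 15.8, 9.71, 18.1, 14.5 and 15.2 CPM (log2 0.69 ± 0.22, adjusted p = 0.0307). The last call was lost without mouse 192 (adjusted p = 0.057), 194 (0.35, adjusted p = 0.0782), 209, 210 or 277 and with the mouse as a block (0.74, adjusted p = 0.0613). Lamb1 was higher too, at 26.5 ± 1.96 against 18.5 ± 3.13 CPM (log2 0.57 ± 0.10, adjusted p = 0.00073), as were Col6a2 (0.58), Col12a1 (0.56), Lama3 (0.55) and Col20a1 (0.48).

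Among the lower, Col16a1 ran from 14 to 17.3 CPM in the inputs against 22.3, 25.4, 43.4, 29.7 and 35.3 CPM in whole tissue, without overlap (log2 -0.99 ± 0.14, adjusted p = 0.000259). Col11a1, fibrillar, ran from 7.94 to 10.6 against 13.4, 16.5, 16.7, 16.3 and 18.3 CPM (log2 -0.76 ± 0.10, adjusted p = 0.000143). Col5a3 ran from 2.58 to 4.63 against 6.22, 5.07, 8.84, 4.02 and 9.03 CPM (log2 -0.89 ± 0.21, adjusted p = 0.005), with overlap through mouse 210. Col25a1 ran from 43.4 to 60.2 against 74.8, 116, 77.9, 51.6 and 107 CPM (log2 -0.68 ± 0.16, adjusted p = 0.00605), and mouse 210 again lay among the inputs. Col4a2 stood at 43.5, 54.0, 59.7, 37.8 and 62.4 CPM in whole tissue, above every input (log2 -0.63 ± 0.13, adjusted p = 0.00267). Col4a1 stood at 44.9, 40.9, 43.1, 28.2 and 48.4 CPM (log2 -0.34 ± 0.11, adjusted p = 0.0272), and lost its call without mouse 192, 194, 209 or 277 (adjusted p = 0.0777, 0.0692, 0.0633 and 0.115) and with the mouse as a block (-0.27, adjusted p = 0.123). Col6a3 (-0.66), Col5a2 (-0.60), Lamc3 (-0.53), Col11a2 (-0.51), Lama5 (-0.49), Col15a1 (-0.48), Col4a5 (-0.43) and Lamb2 (-0.35) were also lower, and Lama2, Nid1 and Nid2 did not pass the test. With all 6 groups in the fit Col11a1 (adjusted p = 0.206), Col4a2 (0.155), Col4a1 (0.36) and Col5a3 (0.0733) did not pass.

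In the same comparison the endothelial markers were lower in 13 of 13 cases, at 207 to 235 CPM in the inputs and 311 to 587 CPM in whole tissue with the lowest value in mouse 210. Pericyte markers were lower in 8 of 10 cases and oligodendrocyte markers in 7 of 8, ependymal markers in 3 of 3, oligodendrocyte precursor markers in 4 of 7 and astrocyte markers in 5 of 10. Fibroblast and meningeal markers had 6 higher and 1 lower of 12, choroid plexus markers 3 higher of 10, and neuronal markers 4 higher and 1 lower of 8; no microglial, border macrophage or erythrocyte marker passed the edgeR threshold. Their part in the members' differences was not tested. Of the companion lists, 6 of 28 collagen-modifying genes were higher, led by the procollagen protease Bmp1 (log2 1.14), and 5 lower (16.3% and 14.2% of all genes were); 4 of 20 other basement membrane components were higher and 9 lower, with Hmcn1 at -1.14, Tinagl1 at -0.95 and Sparc at -0.81; and 2 of 19 receptors were higher and 8 lower, led by Cd93 (-1.33), Itga1 (-1.06) and Bcam (-0.97).

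**Figure D5:**
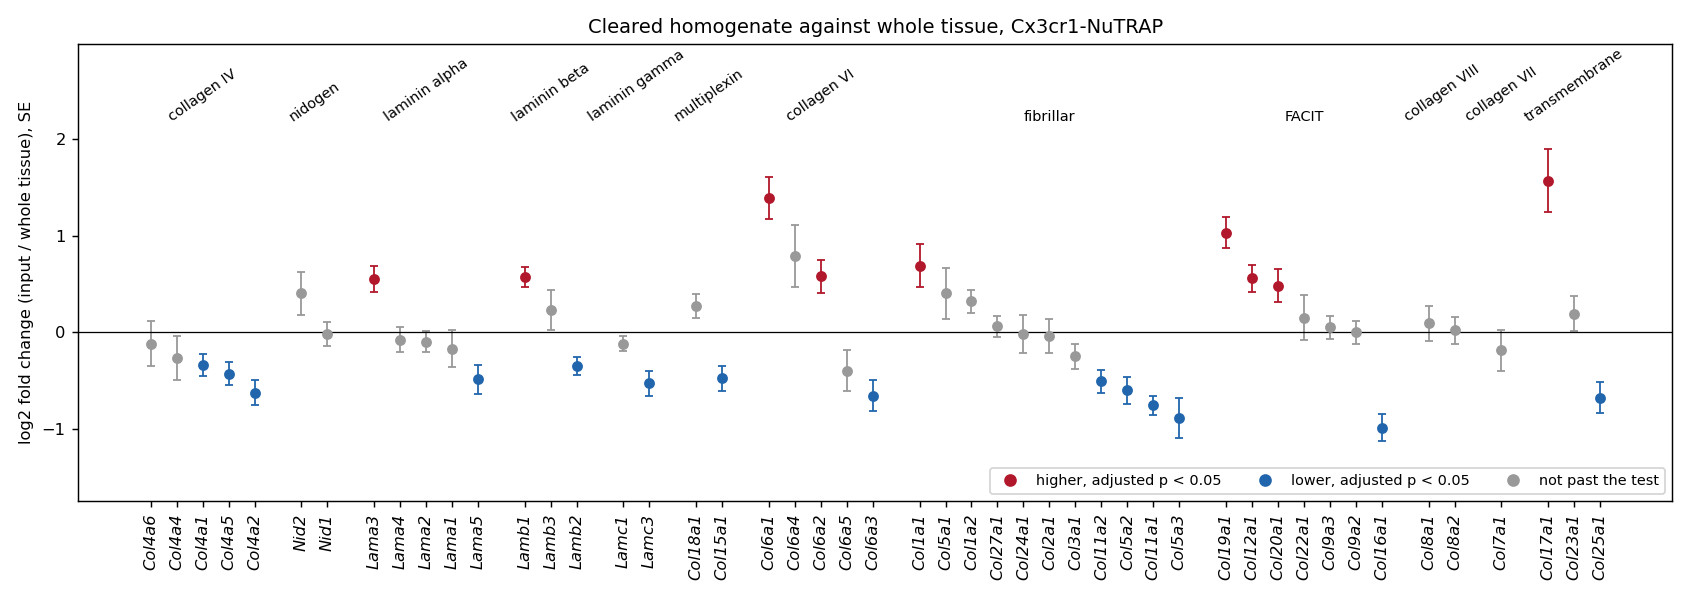
Log2 difference of the Cx3cr1 input over whole tissue (points, bars are SE, n = 6 and 5) for 48 of the 49 members tested, arranged by class. Col17a1 (1.57), Col6a1 (1.39) and Col19a1 (1.03) lie highest, and Col16a1 (-0.99), Col5a3 (-0.89) and Col11a1 (-0.76) lowest.

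The negative fraction was also compared with the input. None of 51 members was higher by edgeR (background 1.35%; 0 at an unadjusted p under 0.05, background 15%, and 0 by DESeq2, background 5.57%), and 2 were lower (3.92%, background 4.31%), the collagen IV chain Col4a5 (log2 -0.50, adjusted p = 0.039) and Lamc1 (log2 -0.33, adjusted p = 0.0379). At an unadjusted p under 0.05, 12 were lower (23.5%, background 16.8%), with the mouse as a block 14 were called lower (background 19%) and by DESeq2 5 (9.37%). The count was 10 without mouse 155 (14.7%) and 0 without mouse 192, 194, 209, 210 or 277.

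Across the comparisons of Aldh1l1 positive over negative fraction, Cx3cr1 positive fraction over input, input over whole tissue and Aldh1l1 over Cx3cr1 positive fraction, 46 members were tested in all 4. Of these, 6 were called in all 4 (13%, where 7.96% of 13008 genes were), among them Lamb1, Col1a1, Col15a1, Col20a1 and Col25a1. Col1a1 was lower in 3 of these comparisons and higher in the input than in whole tissue. A further 10 were called in 3 comparisons (21.7%, background 26.8%), 15 in 2 (32.6%, background 29.5%), 13 in 1 (28.3%, background 22.3%) and 2 in none (4.35%, background 13.4%), Col2a1 and Col5a1. The comparisons share libraries. Col14a1, a FACIT collagen that was tested in none of the 4, averaged 0.972 to 2.42 CPM over the 6 groups and Col13a1, transmembrane and tested in 2 of the 4, 1.17 to 2.04 CPM. Col5a1, which takes part in the start of collagen I fibrils, stood at 28.8 ± 25.7 CPM in the Cx3cr1 positive fraction and 14.2 ± 2.83 CPM in the input (SD, n = 6 each), with values of 49.1, 26.1 and 70.0 CPM in mice 155, 192 and 194 and 5.86, 6.72 and 15.2 CPM in mice 209, 210 and 277. Col18a1, a multiplexin of vessel walls, was called only between the positive fractions, at 14.5 ± 3.99 CPM in the Aldh1l1 and 30.2 ± 12.4 CPM in the Cx3cr1 line (log2 -1.17, adjusted p = 0.0115; -0.54, adjusted p = 0.0596, against mice 209, 210 and 277 alone).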

How the data were processed

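RNA sequencing was analysed in 29 libraries of 9 mice in 6 groups, taken from the sample labels, in which same-numbered libraries come from the same mouse. The authors sequenced polyadenylated RNA as directional paired-end libraries and aligned the reads to mm10 with Strand NGS, and the submitters' processing notes name DESeq. The deposited matrix holds, per gene, expected counts before normalization (82.4% of nonzero values are not whole within a tolerance of 1e-06) and the authors' log2 values after DESeq normalization; the log2 columns were not used here. How reads that match several genes were shared is not given in the sources used here. No column lacked a sample.

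Expected counts were rounded and tested with edgeR 4.0.16 (quasi-likelihood, robust, TMM) in R 4.3.3 on the groups compared, without a mouse block, for genes above 20 counts throughout any 1 of the groups compared, with Benjamini-Hochberg adjustment over all genes and a threshold of 0.05. CPM use TMM over all 29 libraries. Chain ratios are log2 of (count + 0.5) and were tested over libraries with two-sided exact permutation tests; the positive to input ratio per mouse uses CPM + 0.1. Exon lengths, exonic GC content and motif counts came from the annotation and RefSeq tables on the same assembly as mm10. The scripts were tested on simulated data. Within numbered pairs, deviations from group means correlated over 0.1 in 3 of 3 Aldh1l1 mice (0.436 to 0.639), 3 of 6 between Cx3cr1 positive fraction and input, 3 of 6 between positive and negative fraction, 5 of 6 between negative fraction and input and 0 of 5 between input and whole tissue; the pairing itself comes from the labels.

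The members, the 3 companion lists and the 12 cell type marker lists were chosen with earlier results of these data known. Values by library are given for Col4a1, Col4a2, Lama2, Nid1, Nid2 and the 4 members with the largest rise and fall in each of 4 comparisons (Aldh1l1 positive over negative, Cx3cr1 positive over input, input over whole tissue, Aldh1l1 over Cx3cr1 positive), among those past the threshold; from each companion list up to 3 genes a direction are named. A member that met this rule is not reported here. Other members named by library or mean were chosen after their values were seen. Acta2 and the ependymal marker 1700027A23Rik are listed at 0 in every library. Depth was 8782235 to 25137834 counts in the Aldh1l1 libraries, 15486605 to 26857866 in Cx3cr1 fractions and inputs and 4260949 to 25026611 in whole tissue. Alternatives were DESeq2 1.42.0, its size factors, total counts, no filter, all 6 groups in a fit, the mouse as a block and leaving out each mouse; the fits on some Cx3cr1 mice and without the whole tissue of mouse 210 were added after the data were seen.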

Additional observations from a re-analysis of the deposited data

Results flagged for a closer look

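In 10 of 112 combinations of a member and a group of 4 to 10 libraries, 1 library lay far from the others; by chance about 1 in 20 such groups is picked out. In the Cx3cr1 line, mouse 155 was low for Col4a1 in the negative fraction (18.9 CPM, the others 28.3 to 31.2) and the input (25.6 CPM, the others 32.2 to 35.8), for Col4a2 in the input (23.4 CPM, the others 32.3 to 36.4), for Col8a2 in the input (7.52 CPM, the others 9.74 to 10.6), for Lama2 in the negative fraction (11.5 CPM, the others 14.8 to 16.2) and for Col24a1 in the input (2.06 CPM, the others 2.91 to 3.26). The negative fraction of mouse 194 was high for Col24a1 (3.34 CPM, the others 2.04 to 2.34) and Col3a1 (8.77 CPM, the others 4.47 to 5.70). In whole tissue, mouse 210 was low for Lamb2 (29.3 CPM, the others 41.6 to 46.1) and mouse 277 high for Col8a2 (13.6 CPM, the others 8.36 to 9.03).

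The positive over negative difference itself differed between the lines, by the interaction test in edgeR, for 18 of the 28 members named. These were named for their large differences in comparisons that share the libraries, so their count is no measure of the members at large, of which 10 of 52 were positive and 19 negative (19.2% and 36.5%, where 25.5% and 29.9% of all genes were). It was larger in the Aldh1l1-NuTRAP line for 7: Col8a2 (log2 2.44), Col4a4 (2.10), Lamb2 (2.05), Col9a3 (1.86), Col1a2 (1.47), Lama2 (1.38) and Nid1 (1.22), with adjusted p of 0.0289 for Col4a4, 0.00806 for Nid1, 0.00165 for Col9a3 and at most 9.57e-05 for the rest. It was smaller for 11: Col24a1 (-2.74, adjusted p = 0.0337), Col20a1 (-2.49), Col15a1 (-2.38), Col6a4 (-2.24), Col6a1 (-2.0), Col27a1 (-1.89), Col3a1 (-1.84), Col19a1 (-1.84), Col4a2 (-1.62, adjusted p = 0.0314), Lama1 (-1.58) and Col25a1 (-1.26). All of these 11 but Col25a1 had Cx3cr1 positive fractions that were all higher in mice 155, 192 and 194 than in mice 209, 210 and 277. With mice 209, 210 and 277 alone for the Cx3cr1 line, Col24a1 (-0.39), Col20a1 (-1.41), Col6a4 (-0.93), Col6a1 (-0.34), Col27a1 (-0.91) and Col4a2 (-0.40) did not pass, nor did Nid1 among the larger (1.09, adjusted p = 0.0527); Col15a1, Col3a1, Col19a1, Lama1 and Col25a1 did. With mice 155, 192 and 194 alone, Col4a4 (1.55) did not pass. Among the groups of the interaction test, Col4a4 met the count minimum only in the Aldh1l1 positive fraction, where it was high.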

How the results depend on the processing

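Of the counts of members called, 157 values under an alternative lay within 1.5 times the reported count, and of the chain ratios 141 kept their direction and side of the threshold; the other counts follow by setting. In Aldh1l1 positive over negative fraction, total counts alone gave 5 higher; leaving out a mouse gave 4 to 13 higher and 6 to 20 lower. In Cx3cr1 positive fraction over input, no filter gave 7 higher (15.7% of all genes, against 23.2% with the filter), the mouse block 7, mice 209, 210 and 277 only 1 higher and 24 lower, mice 155, 192 and 194 only 26 higher, and leaving out a mouse 4 to 13 higher. Over the negative fraction, no filter gave 4 higher and 7 lower (7.44% and 6.17% of all genes, against 12.8% and 11.5%), the mouse block 3 and 7, mice 209, 210 and 277 only 1 higher, mice 155, 192 and 194 only 24 higher and 5 lower, and leaving out a mouse 2 to 13 higher and 2 to 10 lower. In negative fraction over input, no filter gave 0 lower (1.08% of all genes, against 4.31%), DESeq2 5, all groups in a fit 0 (0.425%), the mouse block 14 and leaving out a mouse 0 to 10. In input over whole tissue, all groups in a fit gave 5 higher and 6 lower, the mouse block 8 lower and leaving out a mouse 6 to 10 higher. Between the positive fractions, mice 209, 210 and 277 only gave 16 higher and 9 lower, and mice 155, 192 and 194 only 28 lower. Between the negative fractions, DESeq2 gave 4 higher and 1 lower, all groups in a fit 0 higher (0.120% of all genes) and leaving out a mouse 0 to 3 higher. The interaction gave 9 lower with mice 209, 210 and 277 only and 11 to 23 lower when a mouse was left out. Fewer libraries enter the fits that leave out mice, and the cause of the changed counts was not tested for any setting.

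Signs turned with mice 209, 210 and 277 only for Col24a1 (-0.33), Col4a1 (-0.67), Col4a2 (-0.46) and Nid2 (-0.48) in positive fraction over input and for Col4a1 (0.22) and Col4a2 (0.19) between the positive fractions. They turned for Nid1 in input over whole tissue with the mouse block (0.07) and without single mice (-0.10 to 0.05), for Nid2 in Cx3cr1 positive fraction over input without single mice (-0.11 to 0.25), and for the ratios Lama2 over Lama4 in input minus whole tissue (-0.18 to 0.07) and Col1a1 over Col1a2 in Cx3cr1 positive fraction minus input (-0.16 to 0.11). Of these, Col24a1 alone was past the threshold over all libraries. The ratio of Lamb1 to Lamb2 in Cx3cr1 positive fraction minus input kept its sign as a within-mouse difference, paired by the mouse block (-0.29), and without each mouse in turn (-0.32 to -0.22), where p was the smallest the exact tests can give, and did not pass after adjustment. Beside the values given with the results, the mouse block changed no other call of a member named with its values by library. Among single members named, 572 values kept their sign and side, 53 lost the threshold and 18 gained it with the same sign, and 10 changed sign. The Aldh1l1 line has 3 mice and several members lay at a few CPM, which limits the precision of their values.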
